A study of Neogale vison with 6 samples.

Results

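DNA replication genes encode the proteins that load, start and run the replication fork. They were examined here in Mv1Lu cells, an epithelial cell line from mink lung, after cholesterol depletion (CD). The genes were chosen by their symbols. A row of the count table belonged to the group if its symbol was that of a subunit of the origin recognition complex, an MCM protein, a GINS subunit, a subunit of the clamp loader, of DNA polymerases alpha, delta or epsilon, of primase or of RPA, or that of a licensing, firing, clamp, lagging-strand, fork or chromatin assembly factor named here. Of 55 such names, 44 were found, among 24526 genes in the table. The series holds 6 RNA-seq libraries, 3 of which came from untreated cells (control). The other 3 came from cells kept for 16 h with 50 μM lovastatin, which blocks HMG-CoA reductase, together with 50 μM mevalonate, in medium with 10% LPDS, a serum deprived of lipoproteins. The untreated cells received neither agent, and the labels do not name their serum. For another assay of the study, the methods name fetal calf serum for untreated cells and LPDS for CD cells. The comparison is therefore of the whole treatment. Mv1Lu is a single cell line, and nothing in the labels says whether the libraries of a group came from separate cultures, so p-values measure the spread between these libraries.

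Before S phase, the origin recognition complex, CDC6 and CDT1 load the MCM2-7 helicase onto DNA in an inactive form, a step called licensing, and geminin (GMNN) blocks CDT1 once S phase has begun. At the start of S phase the kinase CDC7 with its partner DBF4 triggers firing, and CDC45 and the GINS complex join MCM2-7 to form the active CMG helicase. Primase and DNA polymerase alpha begin new strands, polymerases epsilon and delta extend them with the sliding clamp PCNA, and FEN1 and LIG1 trim and seal the fragments of the lagging strand. In dividing cells many of these genes are transcribed in G1 and S phase under E2F factors, and their mRNA is low in resting cells.

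The libraries held between 13473820 and 18633764 reads on genes, and the reads on the 44 replication genes added up to between 13046 and 75875 per library. Expression is given as CPM after TMM normalization, and changes as log2 fold changes (log2FC) of CD against control with a standard error (SE) from the quasi-likelihood test of edgeR and an FDR (Benjamini-Hochberg) over 12148 tested genes. Replicates of CD varied more, with a biological coefficient of variation of 0.214 against 0.0838 in control. Of the epithelial markers, KRT19 lay between 883 and 1011 CPM in the control and between 379 and 533 CPM in the CD libraries, whereas EPCAM and CDH1 did not exceed 0.432 CPM in any library. The 6 epithelial markers found summed to 1096 to 1223 CPM in control and 579.6 to 665 CPM in CD, and 2 of the 4 that were tested fell. The 7 fibroblast markers summed to 309.9 to 387 CPM and 183 to 232 CPM, respectively, and 4 of the 5 tested fell. The 7 blood and endothelial markers summed to 5.20 to 5.88 CPM in control and 18.1 to 24.4 CPM in CD, most of it CD68, and both that were tested rose, CD68 (log2FC 1.85) and VWF (log2FC 3.38, at most 1.66 CPM in any library). PECAM1 was at 0 in the control and at 0.144 to 0.307 CPM in the CD libraries, too low to be tested, and PTPRC and CDH5 were at 0 in all libraries but 1. Of all tested genes, 22.9% fell and 24.8% rose at an FDR under 0.05. The part of these markers in the changes of the replication genes was not tested.

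All 44 replication genes had enough reads to be tested. In CD, 37 of them fell and none rose at an FDR under 0.05 in edgeR, while 22.9% of all tested genes fell and 24.8% rose. No replication gene was higher at an unadjusted p under 0.05 either, and DESeq2 and limma-voom called 0 higher. The median log2FC of the 44 genes was -1.87, against 0.06 over all tested genes. The decrease was called and at least 2-fold in 34 genes, and at least 4-fold in 20, compared with 9.64% and 2.49% of all tested genes. For 38 of the 44, every CD library lay below every control library, as it did for 28.6% of all tested genes, and for 0 of the 44 every CD library lay above, as it did for 29.5%. Among the 100 tested genes with the lowest log2FC, 13 were replication genes. Permuting 3 libraries against 3 exactly cannot bring 1 gene under a two-sided p of 0.1, so the calls rest on the spread that edgeR estimates across genes. In RNA from whole cultures, fewer cells in S phase and less RNA per such cell cannot be told apart.

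**Figure D1:**
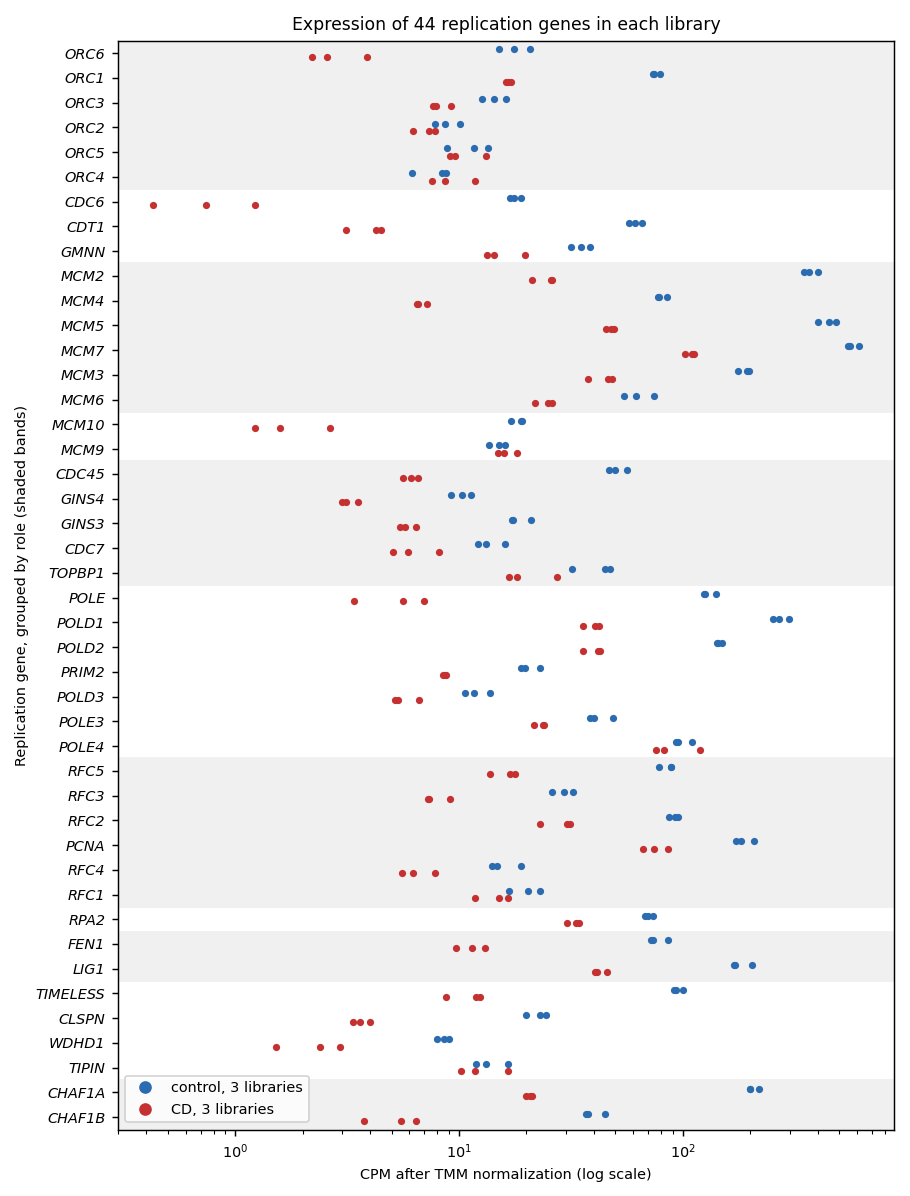
Expression of the 44 replication genes in each library, as CPM after TMM normalization on a log scale, with genes grouped by role in shaded bands and each point 1 library (blue, control; red, CD). For 38 genes the 3 CD points lie to the left of all control points, and the largest shifts are those of CDC6 and POLE.

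Together the 44 genes took 3898, 3947 and 4180 CPM in control replicates 1, 2 and 3, and 881, 870.4 and 939.8 CPM in CD replicates 1, 2 and 3. The CD libraries were thus alike in the summed level, and none of them approached the control. Relative to the control mean of each gene, the median over the genes was -1.98, -1.81 and -1.76 on the log2 scale in the 3 CD libraries. CD replicate 2 was the lowest CD library for 20 of the genes, replicate 3 for 15 and replicate 1 for 9, so that no single CD library carried the decrease.

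Among the licensing factors, all 3 genes fell. CDC6 (ENSNVIG00000002533), the ATPase that brings MCM2-7 to the origin recognition complex, was at 18.9, 16.9 and 17.5 CPM in control and at 0.430, 0.736 and 1.22 CPM in CD, a log2FC of -4.49 (SE 0.29, edgeR FDR 2.10e-06). The CD values rest on 7, 12 and 17 reads and carry the largest counting error of the group. CDT1 (ENSNVIG00000009908), which loads the helicase together with CDC6, was at 61.3, 57.5 and 66.0 CPM in control and 3.13, 4.48 and 4.25 CPM in CD, with a log2FC of -3.96 (SE 0.17, edgeR FDR 2.79e-07). GMNN, the inhibitor of CDT1, was at 31.6, 38.3 and 34.9 CPM in control and at 14.4, 13.3 and 19.7 CPM in CD (log2FC -1.15, SE 0.18, edgeR FDR 5.01e-04). The groups did not overlap for any of these genes. CDC6 was 22.5-fold lower and CDT1 15.6-fold lower, against 2.22-fold for GMNN, and the difference between them was not itself tested. Per read of GMNN there were 1.94, 1.502 and 1.89 reads of CDT1 in control and 0.218, 0.336 and 0.216 in CD. This ratio is taken within a library and does not depend on the normalization between libraries.

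The 6 subunits of the origin recognition complex, which marks the sites where replication can start, did not change together. ORC6, ORC1 and ORC3 fell, with log2FC of -2.63, -2.19 and -0.81, whereas ORC2, ORC5 and ORC4 were not called. ORC6 was at 15.1, 20.7 and 17.5 CPM in control and 2.58, 2.21 and 3.89 CPM in CD (SE 0.24, edgeR FDR 1.99e-05). ORC1, the ATPase subunit whose level varies over the cell cycle, was at 74.4, 79.3 and 73.4 CPM in control and 17.1, 16.5 and 16.2 CPM in CD (SE 0.12, edgeR FDR 7.69e-07). Both were clear of the control in every library. ORC4, at the other end, was at 8.74, 8.38 and 6.17 CPM in control and 8.67, 7.55 and 11.8 CPM in CD, and the groups overlapped (log2FC 0.27, SE 0.23, edgeR FDR 0.355). Without CD replicate 3 the log2FC of ORC4 was 0.033, and without control replicate 3 it was 0.12. ORC2 had a log2FC of -0.31 and ORC5 one of -0.09, each with overlapping groups. The reads of ORC6 per read of ORC4 were 1.73, 2.47 and 2.84 in control and 0.298, 0.293 and 0.329 in CD.

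All 6 subunits of the MCM2-7 helicase fell, by amounts that spread widely. MCM2 (ENSNVIG00000017938) was at 366, 346 and 402 CPM in control and at 25.6, 26.0 and 21.3 CPM in CD, a log2FC of -3.93 (SE 0.14, edgeR FDR 9.75e-08), or 15.3-fold lower. MCM6 was at 61.5, 74.3 and 54.7 CPM in control and 26.0, 21.8 and 25.1 CPM in CD, a log2FC of -1.39 (SE 0.15, edgeR FDR 5.62e-05), or 2.61-fold lower. The reads of MCM2 per read of MCM6, a ratio that also depends on transcript length and is compared only between the groups, were 5.95, 4.66 and 7.36 in control and 0.986, 1.19 and 0.848 in CD. The log2FC of MCM4, MCM5, MCM7 and MCM3 were -3.57, -3.23, -2.41 and -2.10, with SE between 0.11 and 0.13. The step from MCM7 to MCM3 was the narrowest in this order, and whether neighbors differ was not tested.

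Within the reads of these 6 subunits, MCM2 made up 21.5% ± 0.522 in control and 9.52% ± 0.941 in CD (SD, n = 3 each). MCM6 made up 3.71% ± 0.756 in control and 9.53% ± 0.975 in CD, and MCM3 11.0% ± 0.661 and 17.2% ± 2.01. MCM7 made up 33.2% ± 0.291 in control and 42.4% ± 2.11 in CD. MCM5 made up 25.8% ± 1.29 and 18.7% ± 0.933, and MCM4 4.67% ± 0.455 and 2.65% ± 0.159. The shares of MCM2, MCM4 and MCM5 were thus lower and those of MCM3, MCM6 and MCM7 higher in CD, and the groups did not overlap in any of the 6.

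Of the other MCM proteins, 2 were found, and 1 of them fell. MCM10, which joins the helicase at firing, was at 18.9, 19.2 and 17.1 CPM in control and 2.64, 1.23 and 1.58 CPM in CD (log2FC -3.33, SE 0.26, edgeR FDR 7.27e-06). MCM9, known mainly for its part in homologous recombination and mismatch repair, was at 15.1, 16.1 and 13.6 CPM in control and 18.1, 14.97 and 15.9 CPM in CD. Its groups overlapped and no change was called (log2FC 0.13, SE 0.16, edgeR FDR 0.527).

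**Figure D2:**
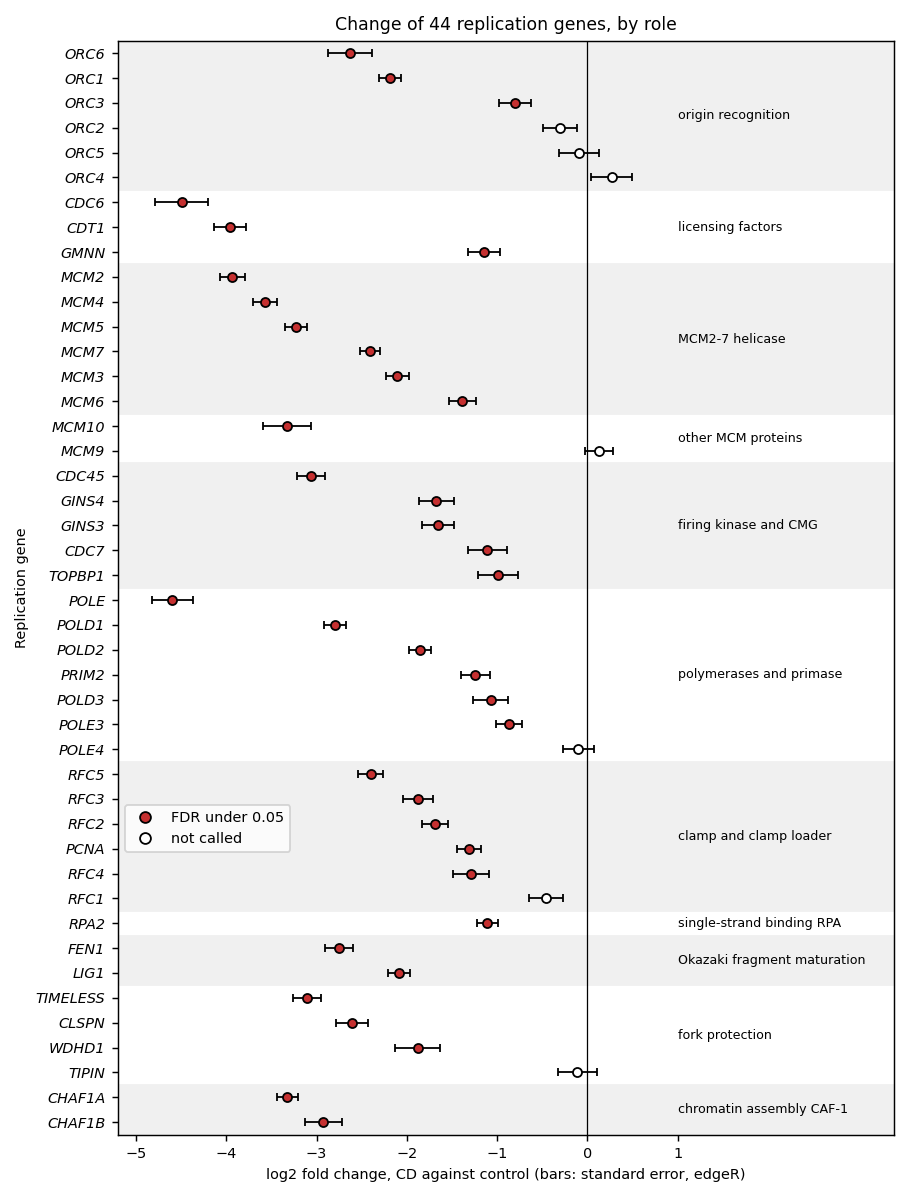
Log2 fold change (log2FC) of CD against control for the 44 replication genes, ordered within their role groups, with bars for the standard error of edgeR. Filled points are the 37 genes with an FDR under 0.05, and the 7 open points, between -0.46 (RFC1) and 0.27 (ORC4), were not called.

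Of 8 names for origin firing and for the parts of the CMG helicase beside MCM2-7, 5 were found by symbol, and these 5 fell. CDC45, a CMG subunit that joins MCM2-7 at firing, was at 46.7, 49.8 and 56.5 CPM in control and 6.58, 6.07 and 5.62 CPM in CD, with a log2FC of -3.06 (SE 0.15, edgeR FDR 4.71e-07). GINS4 and GINS3, subunits of the GINS complex, fell by 1.67 and 1.65 on the log2 scale, within 1 SE of each other. CDC7, the kinase, fell by 1.11 (SE 0.22, edgeR FDR 0.00224). TOPBP1, a scaffold for firing and for checkpoint signaling, had the smallest decrease of the group, from 44.9, 47.3 and 32.0 CPM in control to 27.4, 16.7 and 18.1 CPM in CD (log2FC -0.99, SE 0.22, edgeR FDR 0.00415). Control replicate 3 and CD replicate 1 came close to each other for TOPBP1, while for CDC45 the groups were far apart.

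Of 7 genes for DNA polymerases and primase, 6 fell. POLE (ENSNVIG00000022519), the catalytic subunit of polymerase epsilon, which copies the leading strand, had the lowest log2FC of all replication genes. It was at 125, 124 and 141 CPM in control and at 6.94, 5.64 and 3.39 CPM in CD, a log2FC of -4.60 (SE 0.23, edgeR FDR 4.17e-07), or 24.2-fold lower. In the order of all 12148 tested genes from the lowest log2FC, POLE stood at place 8 and CDC6 at place 9. POLE4, a small histone-fold subunit of the same enzyme, was at 95.4, 109.6 and 92.9 CPM in control and at 75.5, 82.3 and 119.9 CPM in CD. The groups overlapped and no change was called (log2FC -0.10, SE 0.17, edgeR FDR 0.656). The call of POLE4 depended on 1 library, since without CD replicate 3 it had a log2FC of -0.37 (edgeR FDR 0.00483). POLE3, the partner of POLE4, fell by 0.87 (SE 0.14, edgeR FDR 6.91e-04). There were 1.31, 1.13 and 1.52 reads of POLE per read of POLE4 in control and 0.0919, 0.0686 and 0.0282 in CD, so that the mean ratio was 21.0 times higher in control.

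Polymerase delta, which copies the lagging strand, also had its lowest log2FC in the catalytic subunit. POLD1, its catalytic subunit, was at 269, 252 and 299.6 CPM in control and 40.4, 42.1 and 35.8 CPM in CD (log2FC -2.79, SE 0.13, edgeR FDR 3.08e-07). POLD2 and POLD3, accessory subunits, fell by 1.85 and 1.07. PRIM2, the large subunit of primase, fell by 1.24, from between 19.0 and 22.9 CPM in control to between 8.50 and 8.77 CPM in CD. All 4 genes were lower in every CD library than in any control library.

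**Figure D3:**
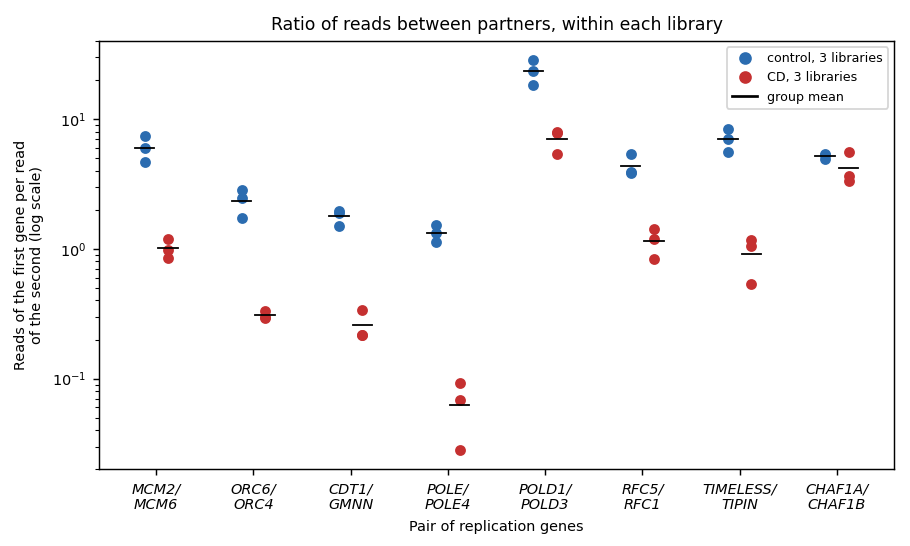
Reads of one replication gene per read of a partner, within each library and on a log scale, with points for libraries (blue, control; red, CD) and black lines for group means. In 7 of the 8 pairs the control and CD libraries do not overlap, with the widest separation for POLE/POLE4, and for CHAF1A/CHAF1B they overlap. The pairs were picked with their values in view, and most join the lowest and the highest log2FC of a complex. The separation thus repeats those log2FC and says nothing about other pairs.

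PCNA, the sliding clamp, was 2.48-fold lower in CD. It was at 173, 207 and 182 CPM in control and 74.4, 66.6 and 86.0 CPM in CD, a log2FC of -1.31 (SE 0.13, edgeR FDR 3.40e-05). Of the 5 subunits of the clamp loader, RFC5, RFC3, RFC2 and RFC4 fell. RFC5 had the largest change, from 78.6, 88.6 and 88.9 CPM to 13.8, 16.8 and 17.9 CPM (log2FC -2.40, SE 0.14, edgeR FDR 1.17e-06). RFC3, RFC2 and RFC4 had log2FC of -1.88, -1.69 and -1.29. RFC1, the large subunit that is specific to the loader of PCNA, was at 20.3, 23.0 and 16.7 CPM in control and 16.5, 11.8 and 15.1 CPM in CD. The CD libraries of RFC1 lay just below the control libraries, and the change was not called (log2FC -0.46, SE 0.19, edgeR FDR 0.0656), although DESeq2 called it (FDR 0.0441), as did edgeR without CD replicate 1 (FDR 0.0441) or CD replicate 3 (FDR 0.00713).

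FEN1, the flap nuclease of the lagging strand, was at 72.3, 73.3 and 85.7 CPM in control and 11.4, 13.1 and 9.65 CPM in CD (log2FC -2.76, SE 0.16, edgeR FDR 8.65e-07). LIG1, the ligase that seals the fragments, was at 172, 168 and 203 CPM in control and 41.4, 45.9 and 40.6 CPM in CD (log2FC -2.09, SE 0.12, edgeR FDR 1.24e-06). Both were several-fold lower in every CD library. RPA2, a subunit of the complex that coats single-stranded DNA, was at 68.0, 70.0 and 73.4 CPM in control and 33.2, 30.5 and 34.2 CPM in CD (log2FC -1.11, SE 0.12, edgeR FDR 4.49e-05).

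Of the 4 genes that protect and couple the fork, 3 fell. TIMELESS was at 93.6, 91.6 and 99.9 CPM in control and 12.4, 11.9 and 8.79 CPM in CD (log2FC -3.10, SE 0.16, edgeR FDR 4.71e-07). TIPIN, with which TIMELESS forms a dimer, was at 13.3, 16.5 and 11.8 CPM in control and 11.7, 10.2 and 16.5 CPM in CD, with overlapping groups and no call (log2FC -0.11, SE 0.22, edgeR FDR 0.697). The reads of TIMELESS per read of TIPIN were 7.06, 5.56 and 8.44 in control and 1.05, 1.16 and 0.533 in CD. CLSPN, which passes the checkpoint signal from the fork to CHK1, fell by 2.61, and WDHD1, which ties the helicase to polymerase alpha, fell by 1.88.

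The chromatin assembly factor CAF-1, which places histones on newly made DNA at PCNA, was represented by 2 subunits, and both fell. CHAF1A, its large subunit, was at 199, 200.5 and 219.7 CPM in control and 21.1, 20.0 and 20.7 CPM in CD (log2FC -3.32, SE 0.12, edgeR FDR 9.75e-08). CHAF1B was at 37.5, 37.1 and 45.0 CPM in control and 6.39, 5.52 and 3.75 CPM in CD (log2FC -2.93, SE 0.21, edgeR FDR 3.60e-06). Reads of CHAF1A per read of CHAF1B were between 4.89 and 5.41 in control and between 3.30 and 5.54 in CD, and these ranges overlapped, unlike those of the other pairs.

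Of the names, 11 had no row under their own symbol, namely MCM8, DBF4, GINS1, GINS2, POLA1, POLA2, PRIM1, POLD4, POLE2, RPA1 and RPA3. For 5 of these, the description in the table names the protein beside another symbol, and their values are given here although the rule on symbols leaves them out. POLA1, the catalytic subunit of polymerase alpha (A6NMQ1 in the table), was at 27.3, 30.5 and 24.3 CPM in control and 6.45, 5.71 and 4.75 CPM in CD (log2FC -2.27, SE 0.18, edgeR FDR 7.53e-06). GINS1 (PSF1 in the table) and DBF4 (DBF4A), the partner of CDC7, fell by 2.31 and 1.37. RPA1 and RPA3, the subunits that bind RPA2 and are listed as RFA1 and RFA3, were not called, with log2FC of -0.27 (edgeR FDR 0.140) and -0.06 (edgeR FDR 0.847). RPA1 was at 63.8, 63.2 and 63.6 CPM in control and 61.0, 53.9 and 43.3 CPM in CD. RPA3 was at 17.6, 27.3 and 18.7 CPM in control and 19.2, 15.2 and 26.6 CPM in CD, so that of the RPA complex RPA2 alone was called. Every CD library lay below every control library for 4 of these 5 genes, RPA1 among them, as for 28.6% of all tested genes. The groups overlapped for RPA3. With these genes added, 40 of 49 fell and none rose, against 22.9% and 24.8% of all tested genes. The other 6 names were not analysed here.

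Further genes of replication, written as a list from general knowledge, mostly fell as well. Of 34 genes, 28 were found and tested, of which 20 fell and 1 rose, against 22.9% and 24.8% of all tested genes. The median log2FC of the 28 was -1.13. The lowest was DTL, which targets CDT1 for destruction in S phase, at 30.7, 30.2 and 27.4 CPM in control and 3.69, 2.58 and 2.38 CPM in CD (log2FC -3.34, SE 0.20, edgeR FDR 1.38e-06). The highest was BAZ1A, a subunit of a chromatin remodeler, at 38.1, 36.7 and 30.8 CPM in control and 51.9, 42.8 and 56.3 CPM in CD (log2FC 0.52, SE 0.15, edgeR FDR 0.0160). With 1 library left out, 17 to 21 genes of the list fell, and CHTF8, DONSON and KAT7 each lost their call in at least 1 of these fits. BAZ1A was not called without control replicate 3, which left 0 genes of the list higher.

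For deoxynucleotide synthesis, which supplies the building blocks, 5 of the 6 tested genes fell and 1 rose, against 22.9% and 24.8% of all tested genes. The median log2FC of the 6 was -1.13. RRM2, the subunit of ribonucleotide reductase made in S phase, was lowest at -2.61, and CMPK1, a pyrimidine nucleotide kinase used throughout the cell cycle, was highest at 0.61 (edgeR FDR 0.00919). CMPK1 was not called without control replicate 1. Of 18 tested genes for mitosis, 18 fell, against 22.9% of all tested genes. The 18 had a median of -1.94 and a range from -2.92 (PLK1, a mitotic kinase) to -0.36 (AURKA, a kinase of the spindle pole, edgeR FDR 0.0238). AURKA was the 1 gene of this list that lost its call when a library was left out, which it did without control replicate 1, 2 or 3 and without CD replicate 2 (edgeR FDR 0.0682 to 0.0844), so that 17 fell. The median of the mitosis list was close to that of the 44 replication genes, while the replication genes reached further in both directions. No difference between these lists was tested.

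**Figure D4:**
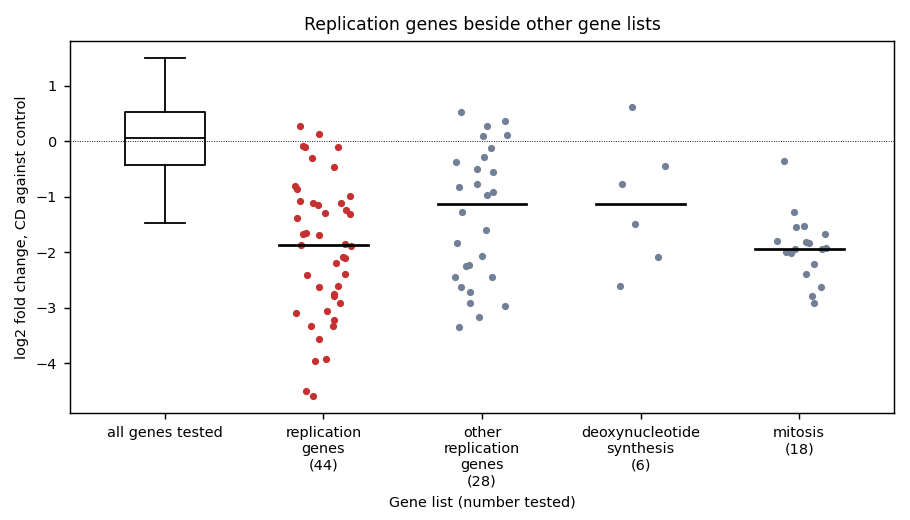
Log2 fold change (log2FC) of CD against control for all tested genes (box, middle 50% of genes with whiskers from the 5th to the 95th percentile) and for the genes of 4 lists (points, with black lines for medians). The 44 replication genes center at -1.87 and reach from -4.60 to 0.27, and the 18 mitosis genes center at -1.94.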

How the data were processed

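The authors deposited raw counts of reads per gene for 6 libraries. Per the study's methods and the submitters' processing notes, the reads of poly(A) mRNA libraries (Nextera XT) were trimmed with fastp 0.20.1 and aligned with STAR 2.7.2a to the mink assembly NNQGG.v01, and expression was compared with DESeq2 1.30.1 in R 4.0.3. The program that counted reads, and whether it used strand, are not given in the sources used here, so overlapping, antisense and near-identical genes are uncertain. The deposited normalized files were not used, because their gene identifiers follow another order than the count table. Another 4 rows, of unassigned reads, were left out. They held 47.2%, 41.4% and 29.3% of the reads in control replicates 1, 2 and 3, and 31.1%, 31.8% and 41.4% in the CD replicates. Unmapped reads alone made up 18.4%, 13.6% and 4.25% in control and 3.54%, 4.33% and 9.37% in CD. The part of this difference in the results was not tested. The count table gives no coordinates or sequences, and gene lengths of the assembly were not used, so levels were not compared between genes. Read ratios and shares of subunits are given without correction for length, and only their difference between the groups is read.

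Differences were tested on the counts with the quasi-likelihood method of edgeR 4.0.16, run under R 4.3.3 (filterByExpr with a minimum count of 10 and a minimum total of 15, TMM, glmQLFit with robust estimation, glmQLFTest) over all 6 libraries with the condition as the only term, and called at an FDR under 0.05. The standard error is the log2 fold change divided by the square root of F, with a median of 0.18 over tested genes. The code was tested on simulated data. Alternatives were DESeq2 1.42.0, limma-voom (limma 3.58.1), other scalings and filters, the replicate number as a block, and each library left out. Groups and replicate numbers came from the sample titles. The genes and lists were chosen with earlier results of these data known, and no list was tested as a set. Library values are given for the lowest and highest gene of each role group and for all genes of groups of at most 3, and the extremes of the other lists are named. The 8 pairs whose read ratios are given were picked with their values in view, and so were the 5 genes under another symbol and the further genes given by library.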

Additional observations from a re-analysis of the deposited data

How the results depend on the processing

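The 37 replication genes that fell kept their call in each of the 14 alternative scalings, filters, tools and choices of libraries. The number of lower replication genes was 37 to 39 with 1 library left out, 38 with DESeq2, 37 at an FDR of 0.01, 27 in a test against a 2-fold change, and the number of higher ones was 0 in every setting. With 1 library left out, the log2 fold change ran from -0.37 to 0.026 for TIPIN and from -0.31 to 0.048 for ORC5, both lowest without CD replicate 3 and above 0 without control replicate 2, and from -0.37 (without CD replicate 3) to 0.036 (without CD replicate 1) for POLE4. The same range was 0.033 to 0.37 for ORC4 and 0.061 to 0.18 for MCM9, neither called in any setting. Of all tested genes, 2006 rose at an FDR of 0.01, and 591 rose and 569 fell in the test against a 2-fold change, while leaving out 1 library gave 2216 to 3616 higher and 2194 to 3606 lower genes. In the test against a 2-fold change, 13 of the other replication genes and 3 of deoxynucleotide synthesis fell and 0 of either rose, and 0 of the other replication genes rose at an FDR of 0.01. With 1 library left out, 0 to 1 gene of each of these lists rose. The cause of these moves was not tested. Other scalings put the median log2 fold change of all genes between 0.037 and 0.090. Same-numbered libraries of the 2 groups deviated from their group means with correlations of -0.024, -0.33 and -0.18. Libraries of the 2 groups with different numbers gave correlations from -0.024 to 0.26. Whether any libraries were made together cannot be told from these values. With the replicate block, 37 replication genes, 18 of the other replication genes and 17 mitosis genes fell, the lost mitosis gene being AURKA, as at an FDR of 0.01 and in the test against a 2-fold change. Low counts limit CDC6 most, whose log2 fold change lay between -4.95 and -4.18 over the settings.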
